A study of Mus musculus with 35 samples.

Results

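The alpha-arrestins are a family of adaptor proteins that share the arrestin fold, and 5 of their genes, Txnip, Arrdc1, Arrdc2, Arrdc3 and Arrdc4, were followed across the hypothalamus of 35 male B6/J mice. The members were taken by their exact gene names, and all 5 were found among the 49568 genes of the count tables and had enough counts to be tested. Polyadenylated RNA was sequenced at Zeitgeber time 16, that is 16 h after lights-on, each library from its own mouse. Of the control mice 10 had free access to food and 10 were fasted from Zeitgeber time 0 to 16. Mice with the genotype PER2-S662D, in which the clock protein PER2 carries an amino acid change, were either fed (n = 5) or fasted for the same 16 h (n = 5). Mice whose genotype is labelled Per2 ko were all fasted for 16 h (n = 5), without a fed counterpart. The labels give neither the construct behind either mutant nor the age of the mice.

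Alpha-arrestins bind ubiquitin ligases of the NEDD4 family through short proline-rich motifs and direct membrane proteins to endosomes. TXNIP, the best known of them, also binds and inhibits thioredoxin, and it lowers glucose uptake by promoting the removal of glucose transporters from the cell surface. ARRDC4 shares much of this action on glucose transport, ARRDC3 acts on beta-adrenergic receptors, ARRDC1 drives the budding of small vesicles from the plasma membrane, and ARRDC2 is the least studied of the 5. Txnip is known as a gene induced by sugar through the transcription factors MondoA and ChREBP, which pair with MLX, and by glucocorticoid hormones.

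The stretches just upstream of the gene starts show how the members differ in sequences known from Txnip regulation, and they are printed for the 3 members that rose on fasting and for Arrdc4, which did not. Each holds 250 bases, 5′ to 3′ on the gene's strand, taken from RefSeq on GRCm38.p6, with motif matches in capitals. They lie at chr3:96557707-96557956 (plus strand), chr8:70839721-70839970 (minus), chr13:80883134-80883383 (plus) and chr7:68749239-68749488 (minus).
Txnip: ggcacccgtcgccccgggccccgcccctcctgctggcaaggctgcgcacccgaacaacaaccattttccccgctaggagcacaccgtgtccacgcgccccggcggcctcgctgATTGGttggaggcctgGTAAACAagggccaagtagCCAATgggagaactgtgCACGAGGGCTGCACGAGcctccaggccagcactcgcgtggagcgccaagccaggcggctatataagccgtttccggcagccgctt
Arrdc2: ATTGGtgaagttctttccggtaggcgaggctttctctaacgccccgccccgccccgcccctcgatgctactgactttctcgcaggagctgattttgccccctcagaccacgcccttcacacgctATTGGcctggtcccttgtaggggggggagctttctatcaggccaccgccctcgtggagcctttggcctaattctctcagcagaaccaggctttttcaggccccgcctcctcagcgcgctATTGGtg
Arrdc3: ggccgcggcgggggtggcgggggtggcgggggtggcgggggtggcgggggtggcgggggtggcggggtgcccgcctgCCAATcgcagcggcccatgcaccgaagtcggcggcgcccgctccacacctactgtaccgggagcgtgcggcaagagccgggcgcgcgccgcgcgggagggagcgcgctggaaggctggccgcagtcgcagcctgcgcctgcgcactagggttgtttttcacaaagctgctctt
Arrdc4: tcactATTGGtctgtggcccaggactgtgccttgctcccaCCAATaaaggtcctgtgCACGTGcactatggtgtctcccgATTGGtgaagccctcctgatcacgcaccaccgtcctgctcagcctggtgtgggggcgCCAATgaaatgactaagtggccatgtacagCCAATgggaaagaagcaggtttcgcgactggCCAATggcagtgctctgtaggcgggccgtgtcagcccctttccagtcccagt

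Capitals mark matches, on either strand, to 5 motifs: the E-box CACGTG, a pair of E-box-like copies of CACGNG spaced by 5 bases, the FOXO motif GTAAACA, the CCAAT box, and the glucocorticoid receptor half-site AGAACA. A match is a description of the letters and not a site. The motifs were taken as sequences known from Txnip regulation, so a match in Txnip is no independent result. Txnip held the paired element at 85 to 69 bases before its start, which only 15 of 32536 promoter windows of this length held (0.0461%). It also held the FOXO motif (3.17% of windows) and 2 CCAAT boxes (33.8% of windows held at least 1). Arrdc4 held a single E-box (6.04% of windows) and 6 CCAAT boxes. Arrdc2 and Arrdc3 held 3 and 1 CCAAT boxes and no other match. The window of Arrdc1 held no match, but it was the only one of the 5 whose start was not matched to a transcript of its gene. AGAACA (16% of windows) was found in none of the 5.

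The libraries held 17959586 to 37027342 counts each, which gave 296 to 429 counts for Txnip in a fed control library. The deepest were of S662D mice, with up to 37027342 counts fed and 34081435 fasted. Controls reached at most 22036714 counts and the labelled knockout 25814045. Hypothalamic peptide markers summed to 531 to 762 CPM (the counts divided by library size in units of 1000000 counts, scaled by edgeR's TMM factors) in control and mutant libraries alike, while pituitary markers reached at most 6.66 CPM, with Gh and Prl at 0 in all fed controls. Choroid plexus markers ranged from 23.8 to 1556 CPM, and 8 libraries lay above 200 CPM, 3 of them fasted controls. Per2 itself stood at 30.3 CPM in the libraries labelled knockout against 29.0 CPM in fasted controls, so its count was not lower there, and these are called the libraries labelled Per2 knockout. A count over the whole gene does not show whether some exons are missing. Per2 was lower in S662D mice, at 18.7 CPM fed and 19.9 fasted against 28.2 and 29.0 in controls. Library numbers run in separate ranges for controls 1 to 5, controls 6 to 10, the labelled knockout and S662D, so the genotypes cannot be told apart from those ranges. An additional digit, whose meaning is not stated, ends that number in 6 of the 10 libraries of S662D mice, namely replicates 2, 3 and 4 of either feeding state.

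The first question was how much of each member the fed hypothalamus held. Per kilobase of exon, fed controls held most Arrdc3, at 8.52 CPM per kilobase, and least Arrdc4, at 1.87. Between them stood Txnip at 5.75 ± 0.557 (SD, n = 10), Arrdc1 at 5.05 and Arrdc2 at 4.49. Among all tested genes Arrdc3 ranked at percentile 67.9 and Arrdc4 at percentile 34.6, with Txnip at 58.3, Arrdc1 at 55.2 and Arrdc2 at 52.6. All but Arrdc4 thus stood somewhat above the middle of the tested genes. The ranges over fed controls overlapped between Txnip (4.69 to 6.59) and Arrdc1 (4.59 to 5.59) and between Arrdc1 and Arrdc2 (3.84 to 5.79), while Arrdc3 stood above them (7.32 to 9.31) and Arrdc4 below (1.52 to 2.36).

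Fasting reordered the family. Arrdc3 made up 33.2% ± 1.69 (SD, n = 10) of the summed per-kilobase level of the 5 genes in fed controls and 24.2% ± 2.26 (SD, n = 10) in fasted ones. The share of Arrdc2 went from 17.5% ± 1.86 to 33.0% ± 5.39, and that of Txnip from 22.4% ± 1.52 to 27.6% ± 2.52. Arrdc1 went from 19.7% to 11.5% and Arrdc4 from 7.28% to 3.80% while their own levels changed little, since the shares of a sum move together. In fasted S662D mice the shares were 33.0% Arrdc2, 28.3% Txnip and 25.1% Arrdc3, and in the labelled knockout they were 35.6%, 30.2% and 22.1%.

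**Figure D1:**
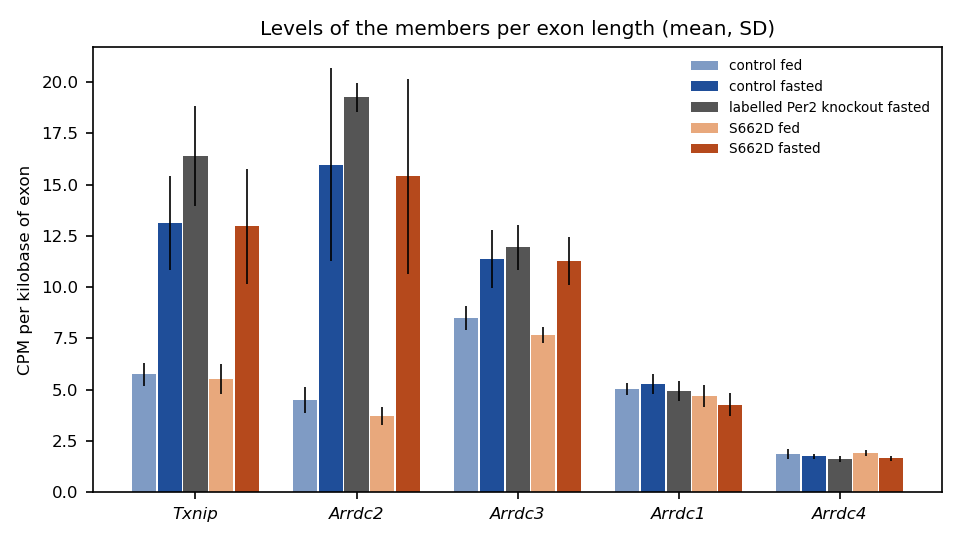
Mean CPM per kilobase of exon for each member in the 5 groups, with SD over mice as error bars. Arrdc3 is the highest bar among fed controls at 8.52, while Txnip and Arrdc2 stand above it in all 3 fasted groups.

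Fasting raised Arrdc2, Txnip and Arrdc3 in control mice and left Arrdc1 and Arrdc4 within the spread between mice. Txnip had 14.6 CPM in the lowest, 18.0 in the median and 20.6 in the highest of the 10 fed controls, and 25.5, 41.6 and 51.7 CPM in the 10 fasted ones. The 2 groups did not overlap. Its log2 fold change was 1.19 (SE 0.10), a 2.28-fold rise with a 95% interval of 1.97 to 2.64 (adjusted p 1.98e-09, by the quasi-likelihood test of edgeR with Benjamini-Hochberg correction over all tested genes). In bulk tissue more cells of a type and more RNA per cell cannot be told apart, and the p-values measure the spread between these mice. Gm15441, an RNA transcribed from the opposite strand, overlaps 19.4% of the exon bases of Txnip. Reads were counted without regard to strand, so those from the shared stretch cannot be separated. How reads of that stretch were assigned was not examined. The level of Txnip per kilobase was divided by all 3123 exon bases, so it would be understated if those reads were left uncounted. Gm15441, named here after the overlap was seen, had at most 6 counts in any library.

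Arrdc2 moved most. Fed controls held 12.4 CPM at the lowest, 14.3 at the median and 18.7 at the highest, and fasted controls 28.6, 57.0 and 66.7 CPM. Every fasted mouse stood above every fed mouse. The log2 fold change of Arrdc2 was 1.83 (SE 0.16, adjusted p 5.42e-09, edgeR), or 3.55-fold with a 95% interval of 2.82 to 4.48. The fasted mice were spread widely: replicates 1 to 5 had 60.5, 53.5, 66.6, 66.5 and 62.0 CPM, while replicates 6 to 10 had 39.4, 28.6, 41.1, 31.2 and 66.7 CPM. Within these sets the log2 fold change of Arrdc2 was 1.98 in controls 1 to 5 and 1.62 in controls 6 to 10, and that of Txnip was 1.24 and 1.13, each called in both sets.

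Arrdc3, the member linked to adrenergic receptors, rose by less. It went from 45.8, 53.9 and 58.3 CPM (lowest, median, highest of fed controls) to 56.2, 70.8 and 88.4 CPM, and 9 of the 10 fasted mice stood above every fed one. The log2 fold change of Arrdc3 was 0.42 (SE 0.06, adjusted p 2.94e-06, edgeR). Within controls 1 to 5 it was 0.50 and within controls 6 to 10 it was 0.32, again called in both. Arrdc1, the vesicle-budding member, had 11.5, 12.8 and 14.0 CPM fed against 11.9, 13.0 and 15.5 fasted, a log2 fold change of 0.07 (95% interval -0.06 to 0.20, adjusted p 0.739, edgeR). Arrdc4 had 6.15, 7.49 and 9.54 CPM fed against 6.30, 7.08 and 7.92 fasted, a log2 fold change of -0.10 (-0.24 to 0.04, adjusted p 0.628, edgeR). The fed and fasted mice overlapped in both genes, with 3 of the 10 fasted mice above every fed mouse in Arrdc1 and 0 in Arrdc4.

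In all, 3 of the 5 members were called higher and none lower, where 2.2% of all tested genes were called higher and 3.88% called in either direction. Only 67 of 18063 genes (0.371%) had every fasted control above every fed control, Txnip and Arrdc2 among them. The median log2 fold change of the 5 members was 0.42, against 0.00 over all tested genes. The members were chosen with earlier results of these data known, so their excess over all genes is no independent evidence. Some markers of other cell types moved in the same comparison: 4 of 10 endothelial genes fell (Kdr, Cldn5, Tek and Itm2a, by 0.49, 0.43, 0.42 and 0.30 on the log2 scale), with a summed level of 295 to 336 CPM fed and 256 to 304 fasted. Of 7 microglial genes 2 fell (Cx3cr1 and P2ry12), with a sum of 220 to 249 CPM fed and 188 to 251 fasted, and 0 of the 8 neuronal genes were called. Of 12 tested genes of hypothalamic peptide neurons 2 rose, the appetite-stimulating peptide genes Agrp (0.61) and Npy (0.39), with a sum of 535 to 762 CPM fed and 531 to 754 fasted. Single calls went both ways in astrocytes (Aldh1l1 0.20, Aqp4 -0.33, of 7 genes) and tanycytes (Dio2 0.50, Nes -0.60, of 7), with Mobp higher among 7 oligodendrocyte genes (0.15), Col1a2 higher among 5 meningeal genes (0.33) and Lef1 lower among 5 thalamic genes (-0.36). The summed levels of these 5 lists overlapped between fed and fasted controls. The part of these shifts in the members' rise was not tested. Without the 8 libraries rich in choroid plexus transcripts, a choice made after seeing the data, Arrdc2 gave 1.92, Txnip 1.20 and Arrdc3 0.41, all called.

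**Figure D2:**
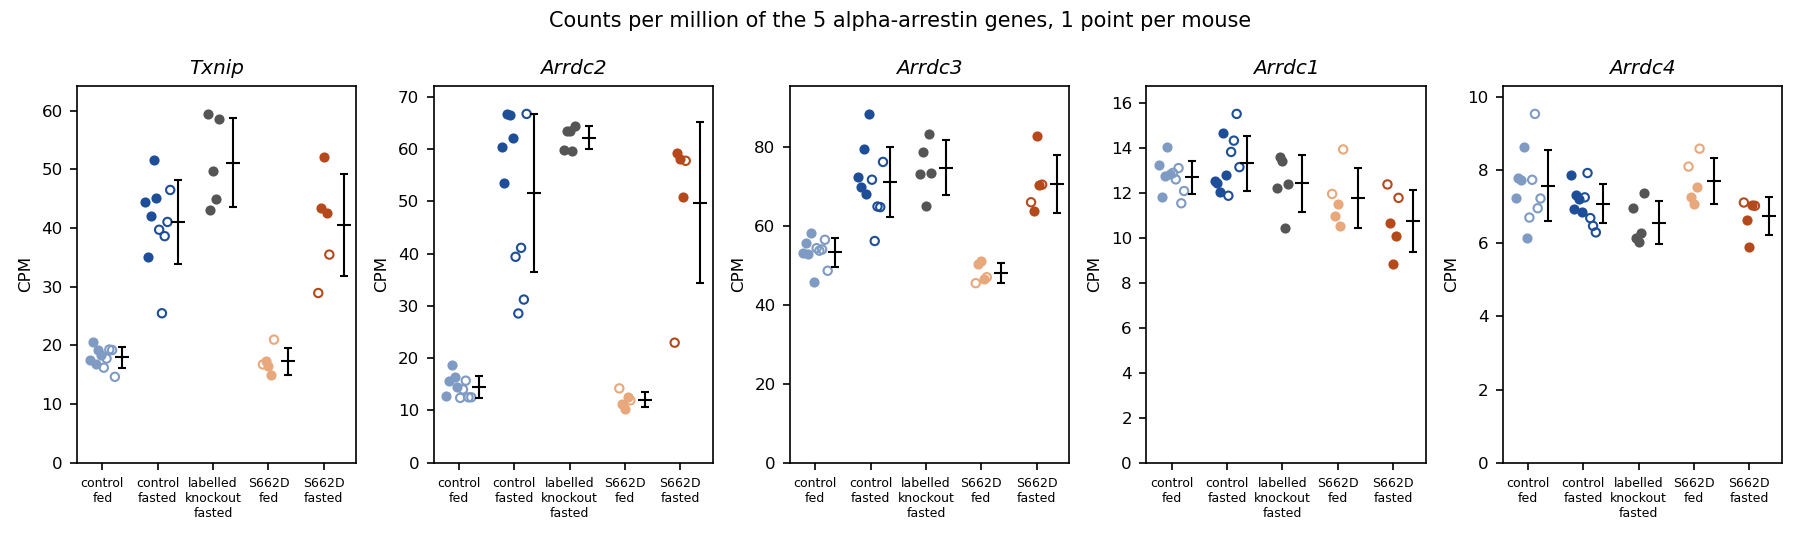
CPM of each member in every mouse, by group, on axes that start at 0, with the mean and SD as black bars. Open points are controls 6 to 10 and the S662D libraries without the additional digit. All fasted points of Txnip and Arrdc2 lie above the fed points of their genotype, and the 5 fasted Arrdc2 points from 23.0 to 41.1 CPM are all open.

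The same genes answered fasting in S662D mice. Txnip had 16.7, 17.3, 16.5, 14.9 and 21.0 CPM in the 5 fed mice and 28.9, 43.5, 52.1, 42.6 and 35.5 CPM in the 5 fasted ones, with no overlap. The log2 fold change of Txnip was 1.23 (SE 0.14, adjusted p 9.67e-07, edgeR). Arrdc2 had 14.2, 11.3, 10.3, 12.5 and 11.9 CPM fed and 23.0, 59.3, 58.1, 50.8 and 57.8 CPM fasted, again with no overlap, although fasted replicate 1 stood far below the other 4. The log2 fold change of Arrdc2 was 2.05 (SE 0.23, adjusted p 7.28e-07, edgeR).

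Arrdc3 had 45.5, 50.4, 51.1, 46.5 and 47.0 CPM fed and 66.0, 63.8, 82.7, 70.5 and 70.5 CPM fasted, and its log2 fold change of 0.55 (SE 0.08, adjusted p 1.35e-05, edgeR) came from groups that did not overlap. Arrdc1 ran from 10.5 to 13.9 CPM fed and 8.83 to 12.4 fasted, and its log2 fold change of -0.12 was not called (adjusted p 0.579, edgeR). Arrdc4, the other member known for glucose transport, stood at 7.07 to 8.59 CPM fed and 5.89 to 7.11 CPM fasted. It had 4 of the 5 fasted mice below every fed mouse, and its log2 fold change of -0.19 (95% interval -0.38 to 0.0035) was not called (adjusted p 0.361, edgeR).

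Thus 3 of 5 members were called higher in S662D mice, and the 3 were the same as in controls. Of all tested genes 1.8% were called higher there and 2.64% called in either direction. For members chosen with earlier results known, the excess over that share is again no independent evidence. All fasted libraries stood above all fed libraries for 354 genes (1.96%), Txnip, Arrdc2 and Arrdc3 among them. The 4 S662D libraries without the additional digit, 2 fed and 2 fasted, gave log2 fold changes of 0.78 for Txnip (adjusted p 0.339), 1.63 for Arrdc2 (adjusted p 0.209) and 0.56 for Arrdc3 (adjusted p 0.147), none called in edgeR. The 6 libraries with the digit gave 1.50, 2.30 and 0.55, all called. Markers of other cell types moved here too. The summed level of 7 oligodendrocyte genes was 7721 to 9176 CPM in fed and 9186 to 9828 CPM in fasted S662D mice, without overlap, and 1 of them, Mobp, was called (0.40). Of 10 endothelial genes Kdr and Itm2a were lower by 0.59 and 0.28 on the log2 scale and Ly6c1 higher by 0.40, with sums of 296 to 335 CPM fed and 266 to 345 fasted. Cx3cr1 was lower among 7 microglial genes (-0.43), Aldh1l1 higher among 7 astrocyte genes (0.19), and among 7 tanycyte genes Dio2 was higher (0.70) and Nes lower (-0.56). Their part in the members' rise was not tested.

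Whether the genotype altered the response was tested as the difference of the 2 fasting responses. For Txnip the difference was 0.04 on the log2 scale (95% interval -0.32 to 0.40). For Arrdc2 it was 0.22 (-0.36 to 0.79) and for Arrdc3 it was 0.14 (-0.06 to 0.34). For Arrdc1 it was -0.19 (-0.41 to 0.03) and for Arrdc4 it was -0.09 (-0.33 to 0.15). None of the 5 was called, nor was any other of the 18063 genes (0%) in edgeR, while 1151 had an unadjusted p below 0.05 and DESeq2 also called 0 genes. The count rose to 486 genes with controls 1 to 5 as the only controls, none of them a member.

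**Figure D3:**
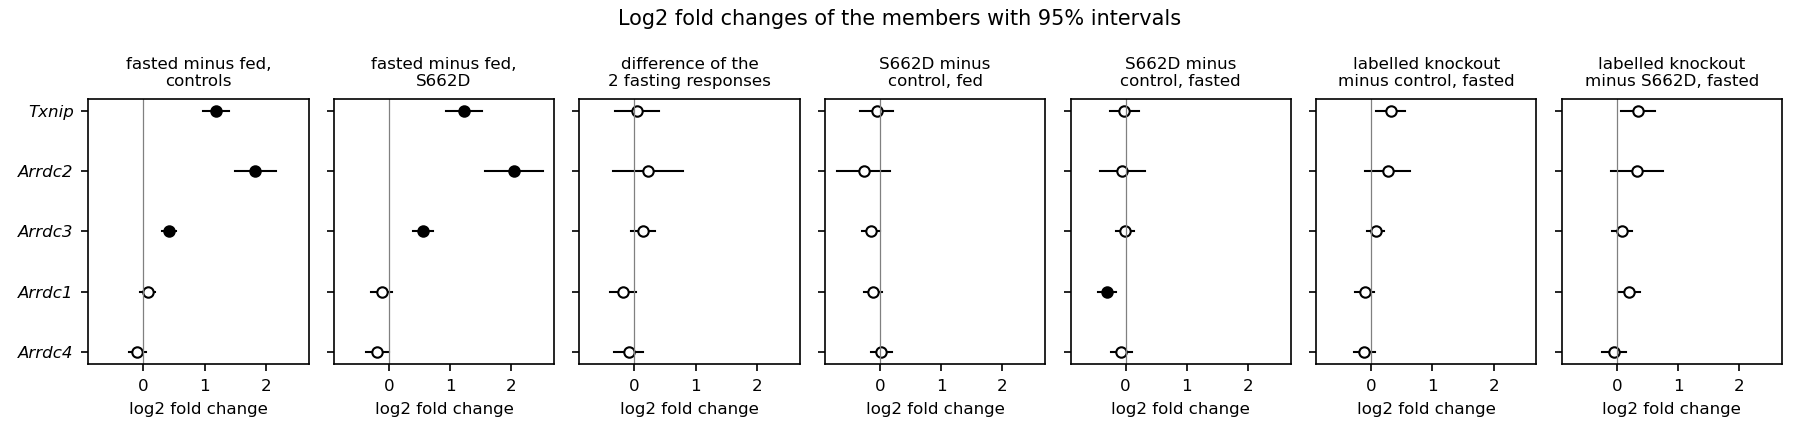
Log2 fold changes of the 5 members in the 7 comparisons, with 95% intervals as lines. Filled points are called at an adjusted p below 0.05. Txnip, Arrdc2 and Arrdc3 are filled in both fasting panels, and Arrdc1 is the only member filled in a genotype panel, at -0.30 in fasted S662D mice.

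No member was called between genotypes in the fed state. Fed S662D mice against fed controls gave log2 fold changes of -0.06 for Txnip, -0.27 for Arrdc2, -0.15 for Arrdc3, -0.11 for Arrdc1 and 0.02 for Arrdc4. The adjusted p ran from 0.221 to 0.922 in edgeR, and 4.69% of tested genes were called. The smallest adjusted p was that of Arrdc3, which had an interval of -0.29 to -0.0045. Below every fed control lay 3 of the 5 S662D mice in Arrdc2, 3 in Arrdc1, 1 in Arrdc3 and 0 in Txnip and Arrdc4, and 1 lay above every control in Txnip.

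In the fasted state 1 member was called, where 5.57% of tested genes were called and 2.23% called lower. Arrdc1 had 12.4, 10.7, 8.83, 10.1 and 11.8 CPM in fasted S662D mice against 11.9, 13.0 and 15.5 CPM (lowest, median, highest) in fasted controls. Of the 5 S662D mice 4 lay below every control, and the groups overlapped by replicate 1 alone. The log2 fold change was -0.30 (SE 0.08, adjusted p 0.0149, edgeR). The call was lost in 9 of 27 alternative settings: the log2 fold change was -0.16 with the digit as a term and -0.14 in the libraries without it, and -0.25 and -0.35 against controls 1 to 5 and 6 to 10 (adjusted p 0.701, 0.997, 0.0753 and 0.0774). Leaving out S662D fasted replicate 2, 3 or 4 also ended it, with adjusted p of 0.0609, 0.0890 and 0.0773, as did a fit of only the groups compared (adjusted p 0.0586, edgeR). The other 4 members gave -0.02 (Txnip), -0.05 (Arrdc2), -0.01 (Arrdc3) and -0.07 (Arrdc4), with adjusted p of 0.698 to 0.955. Marker genes moved in this comparison too. Called higher were 4 of 10 endothelial, 1 of 8 neuronal and 1 of 7 oligodendrocyte genes, and 0 of these lists' genes were called lower. Their part in the Arrdc1 difference was not tested.

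The libraries labelled Per2 knockout were compared with fasted controls and with fasted S662D mice. Txnip had 59.5, 43.2, 49.7, 44.9 and 58.6 CPM in them, and 2 of the 5 stood above every fasted control. The log2 fold change was 0.32 (SE 0.12, unadjusted p 0.0107) and did not pass over all genes (adjusted p 0.746, edgeR). Arrdc2 had 59.9, 63.5, 63.5, 59.7 and 64.4 CPM, the narrowest spread of the 3 fasted groups, with a log2 fold change of 0.27 (adjusted p 0.867, edgeR). Arrdc3 gave 0.07, Arrdc1 -0.10 and Arrdc4 -0.11, so 0 of 5 members were called in a comparison where 0.0277% of genes were.

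Against fasted S662D mice, again 0 of 5 members were called, where 7.34% of tested genes were. The log2 fold changes were 0.34 for Txnip (95% interval 0.06 to 0.62, adjusted p 0.125, edgeR), 0.20 for Arrdc1 (adjusted p 0.163, edgeR) and 0.32 for Arrdc2 (adjusted p 0.377, edgeR). All 5 labelled-knockout mice stood above all 5 S662D mice in Arrdc2, the nearest pair being 59.7 and 59.3 CPM, and 2.17% of tested genes shared that order of the libraries. These 2 comparisons and the one between S662D and controls share their fasted libraries.

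Among fasted mice the members that rose were not equally high in every mouse. Control fasted replicate 7 was the lowest of the 10 in Txnip (25.5 CPM), Arrdc2 (28.6 CPM) and Arrdc3 (56.2 CPM), and S662D fasted replicate 1 was the lowest of its 5 in Txnip (28.9 CPM) and Arrdc2 (23.0 CPM). Sgk1, a glucocorticoid-induced kinase that rose with fasting by 1.87 on the log2 scale in controls, was also lowest in these 2 mice, at 114 and 155 CPM, against a median of 264 CPM in fasted controls and 284 in fasted S662D mice.

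**Figure D4:**
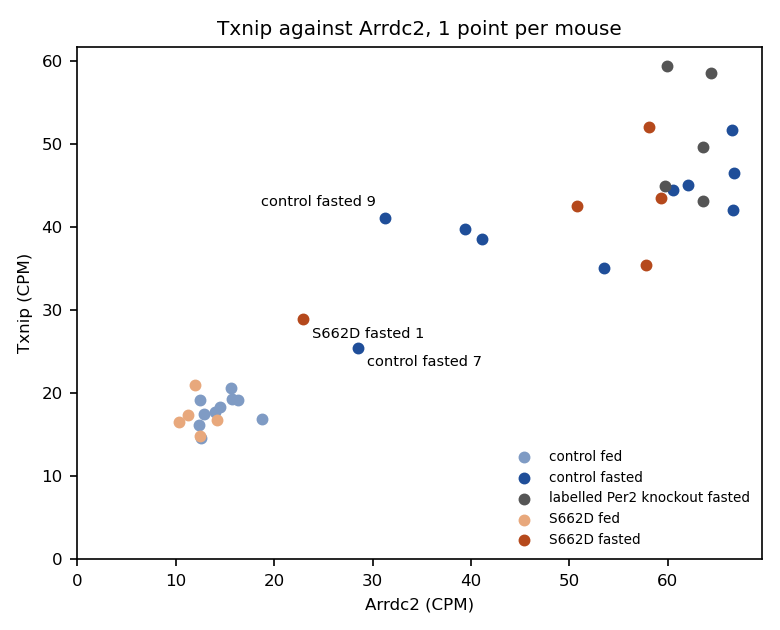
Txnip against Arrdc2 in CPM, 1 point per mouse, coloured by group, with 3 fasted mice of low Arrdc2 named. Fed mice form a cluster of at most 21.0 CPM of Txnip and 18.7 CPM of Arrdc2, and control fasted 7 and S662D fasted 1 lie between it and the other fasted mice.

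After removal of the group means, Txnip and Arrdc2 varied together over the 35 libraries, with Pearson's r of 0.622 and Spearman's rho of 0.478 on log2 CPM (permutation p 0.00115 and 0.00525 within groups, adjusted over the 10 pairs of members 0.0115 and 0.0403). Without the 2 libraries farthest from the median r was 0.358. With the means of the library sets removed as well, r was 0.471 and no pair passed (adjusted permutation p 0.147). Within the sets r was 0.359 in controls 1 to 5, 0.691 in controls 6 to 10 and 0.649 in S662D libraries, with 10 libraries each and adjusted permutation p of 0.758, 0.427 and 0.351. In controls 6 to 10 another pair passed by r, Txnip with Arrdc3 (r 0.888, adjusted permutation p 0.0363; rho 0.685, adjusted permutation p 0.396), with r of 0.603 without the 2 farthest libraries. Arrdc1 and Arrdc3 ran the opposite way, with r of -0.459 and rho of -0.478 (adjusted permutation p 0.0560 and 0.0403). Txnip with Arrdc3 (r 0.444) and Arrdc2 with Arrdc3 (r 0.457) each had an adjusted permutation p of 0.0660, and Arrdc4 was near 0 with Txnip (0.01), Arrdc2 (0.04) and Arrdc3 (-0.05).

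Other genes with the pattern most like that of each member were ranked by Pearson's r of log2 CPM over the 35 libraries, which share their fed and fasted groups, so the values are a description. For Txnip the 5 highest were F3 (0.959), Pdk4 (0.959), Sgk1 (0.958), Arrdc2 (0.958) and Arl4d (0.955). For Arrdc2 they were Nfkbia (0.980), F3 (0.978), Sgk1 (0.977), Adipor2 (0.975) and Pdk4 (0.974). Arrdc3 stood nearest to Net1 (0.935), Trp53inp1, Sgk1, Pdk4 and Rcan2. Pdk4, a kinase that restrains entry of pyruvate into mitochondria, and Sgk1 were thus on all 3 lists. Arrdc1 was nearest to Miip (0.815), Coro6, Phf2os1, Hexdc and Rgs11, and Arrdc4 to Gm17201 (0.700), Tram2, Ptprc, Tspan15 and Serpinb1a.

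With group means removed, the likeness of Arrdc2 was highest to Cdkn1a (0.897), Nfkbia (0.890), Tsc22d3 (0.870), Gm42644 (0.855) and Pdk4 (0.845), and that of Txnip to Pdk4 (0.710), Tsc22d3 (0.698), Sgk1 (0.691), Nfkbia (0.687) and Arl4d (0.670). Arrdc3 differed from both here: its nearest genes were Eps15 (0.850), Scn1a, Cadm2, Far1 and Fam210a. The nearest to Arrdc1 were Gm28192 (0.732), Miip, Pdcd5, Spag7 and Rps14, and to Arrdc4 Spdya (0.641), Gm17201, Cpeb1, Pidd1 and Tram2. The median likeness of 16 glucocorticoid-induced genes, a list that came from earlier work on these data and is therefore no independent evidence, was 0.777 to Arrdc2, 0.448 to Txnip, 0.384 to Arrdc3, -0.305 to Arrdc1 and -0.02 to Arrdc4. All 16 genes of that list rose in both fasting comparisons, with a median log2 fold change of 1.11 in controls and 1.26 in S662D mice. The likeness values here had only group means removed, and not the means of the library sets. Arrdc2 in fasted mice averaged 61.8 CPM in controls 1 to 5 and 41.4 CPM in controls 6 to 10. The part of the library sets in these likeness values was not tested.

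Over the 7 lists drawn up around the family, 6 of 71 tested genes (8.45%) were called on fasting in controls and 4 of 71 (5.63%) in S662D mice, against 3.88% and 2.64% of all tested genes. These lists too were chosen with earlier results of these data known, so that excess is no independent evidence. Of 9 tested genes of the MLX network, whose proteins bind E-boxes, Mxd4 rose in controls and in S662D mice, by 0.38 and 0.39 on the log2 scale, and Mxd1 fell by 0.15 in controls and gave -0.08 in S662D mice (adjusted p 0.517, edgeR). Mlxip, which encodes MondoA, had 27.6 CPM in both fed and fasted controls. Of 15 genes of the thioredoxin and peroxiredoxin system, Srxn1, which restores oxidised peroxiredoxins, rose by 0.24 in controls and 0.27 in S662D mice. Txn1, the thioredoxin that TXNIP binds, had 59.8 CPM fed and 59.5 CPM fasted in controls. None of 9 NEDD4-family ligases, 5 budding genes or 6 other tested arrestin-fold genes was called in either fasting comparison.

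Of 13 proposed cargo genes 1 was called in each fasting comparison, the glucose transporter gene Slc2a1. It stood at 105, 114 and 133 CPM in fed controls (lowest, median, highest) and 147, 174 and 193 CPM in fasted ones, with no overlap, and its log2 fold change was 0.58 (SE 0.08). In S662D mice Slc2a1 stood at 108, 114 and 120 CPM fed and 123, 198 and 246 CPM fasted, and the lowest fasted mouse was replicate 1. The log2 fold change there was 0.81 (SE 0.11), and the difference between both responses was 0.23 (95% interval -0.04 to 0.49). The neuronal glucose transporter gene Slc2a3 had 119 CPM fed and 123 CPM fasted in controls (log2 fold change 0.06, adjusted p 0.498, edgeR). Slc2a1 is known as a gene of brain endothelium, where 4 marker genes fell in the same control mice, and the part of that cell type was not tested.

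Of 14 upstream receptors, kinases and factors, Nr3c1, the glucocorticoid receptor gene, fell by 0.25 in controls and by 0.33 in S662D mice. Foxo1 rose by 0.34 in controls and gave 0.24 in S662D mice, where it was not called (adjusted p 0.243, edgeR). Across genotypes, Notch2 (0.33) and Foxo3 (0.23) were higher in fed S662D mice, and in fasted S662D mice Adrb1 was higher (0.37) while Prdx1 and Hif1a were lower (-0.17 each). The labelled knockout against S662D mice gave Prdx1 higher (0.19) and Wwp2 and Notch1 lower (-0.18 and -0.36), and against controls no gene of these lists was called. Of the 16 glucocorticoid-induced genes, 1 was lower in fed S662D mice than in fed controls, where 4.69% of tested genes were called. In the labelled knockout against fasted S662D mice 1 of them was higher and 1 lower, where 7.34% of tested genes were called.

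**Figure D5:**
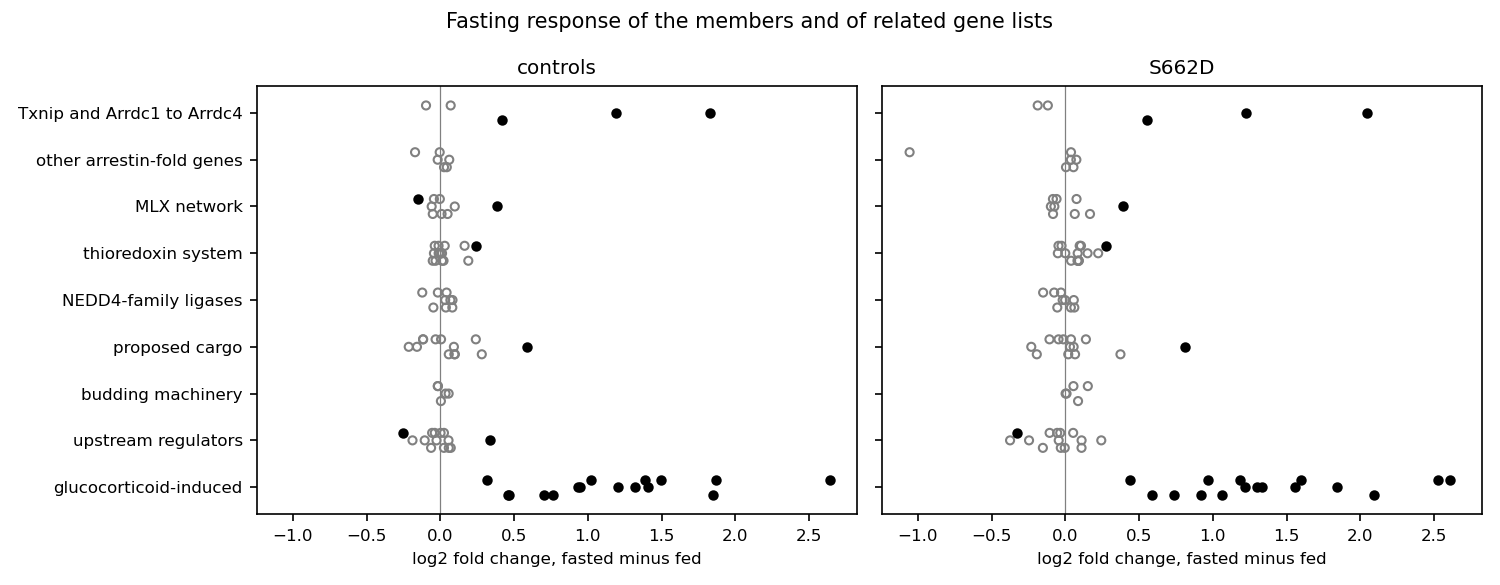
Log2 fold changes on fasting in controls and S662D mice for the 5 members and 8 lists of related genes, 1 point per gene, with filled points called at an adjusted p below 0.05. In the 7 lists other than the glucocorticoid-induced one, at most 2 genes per list are filled, and no filled point reaches the level of Txnip.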

How the data were processed

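The authors deposited a table of raw counts per gene for each of the 35 libraries. Reads were aligned to mm10 with STAR 2.7.10b and counted with Subread's featureCounts 2.0.1, per the submitters' processing notes. Per the file headers, counting was unstranded, used paired reads, and kept multi-mapping reads, with GENCODE M12 gene names. No pair of libraries within a group was identical, and pairs across groups were not compared.

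The counts were fitted with edgeR 4.0.16 in R 4.3.3 (TMM scaling, filterByExpr with a minimum count of 10, quasi-likelihood test, 1 mean per group over all 35 libraries). Of 49568 genes 18063 were tested, and p-values were adjusted by Benjamini-Hochberg over all of them, with a threshold of 0.05. Levels are CPM by TMM-scaled library size, per kilobase of exon where genes are compared. Log2 CPM for correlations used a prior count of 2, and permutation tests were two-sided with 100000 resamples within groups. The edgeR script was tested on simulated data.

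The 5 members and the gene lists were chosen with earlier results of these data known. The genes named besides the members are mostly those called in each list (at most 4 per comparison). Also named are the 5 with the highest correlation with each member among genes of at least 1 CPM. Outside that rule, Mlxip, Txn1 and Slc2a3 were named from the lists without a call. Per2 was named as the altered gene, Gm15441 for its overlap, and Gh and Prl as pituitary markers. Alternatives were RLE scaling, no scaling, no low-count filter, DESeq2 1.42.0, a replicate block, only the groups compared, library sets apart, the additional digit as a term, and each library left out in turn. Leaving out libraries rich in choroid plexus transcripts, and taking fed or fasted libraries alone for correlations, were added after seeing the data. Promoter windows came from RefSeq on GRCm38.p6, and 4 of the 5 members' windows, all but that of Arrdc1, were matched to a transcript of the gene in GENCODE M21. Arrdc3 had 3 entries, of which the one starting at the first exon base of the count tables was used.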

Additional observations from a re-analysis of the deposited data

Results flagged for a closer look

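Arrdc2 in S662D fasted replicate 1 stood at 22.97 CPM, far from the other 4 fasted S662D mice at 50.8 to 59.3 CPM. The gap was wide enough to mark an outlying library by Dixon's criterion. It was the only one among 25 groups of libraries looked at, and chance marks about 1 in 20 groups. The same mouse had the lowest Txnip of its group (28.9 CPM) and the lowest Sgk1 (155 CPM). Without it the rise of Arrdc2 in S662D mice was 2.23 on the log2 scale, against 2.05 with it, and that of Txnip was 1.33, against 1.23.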

How the results depend on the processing

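Txnip, Arrdc2 and Arrdc3 were called on fasting in controls under all 29 alternatives, with log2 fold changes of 1.13 to 1.25, 1.62 to 1.98 and 0.32 to 0.50. In S662D mice they were called under 19, 18 and 19 of 20. The number called there was 0 in the libraries without the additional digit, which leave 2 mice a group. The fewest counts in a library were 296 for Txnip, 864 for Arrdc3, 187 for Arrdc2, 198 for Arrdc1 and 111 for Arrdc4.

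For S662D against fasted controls the number called went from 1 to 0 with only the groups compared, with the replicate block, without the digit, with the digit as a term, and with controls 1 to 5 or 6 to 10, and was 0 to 1 with a library left out. It was 1 rather than 0 for labelled knockout against S662D with the digit libraries (Arrdc1 0.327, adjusted p 0.0130) and for S662D against fed controls with the replicate block (Arrdc2 -0.364, adjusted p 0.0393). The block also gave 1.99 for Arrdc2 on fasting in S662D (adjusted p 0.0856). Same-numbered mice were not taken as pairs, since in none of 6 pairs of groups did every correlation of their deviations pass 0.1. It did in 0 of 10 for fed and fasted controls (-0.191 to 0.0587), 2 of 5 for fed and fasted S662D (-0.109 to 0.16), 3 of 5 for fed control and S662D (-0.0516 to 0.236) and 1 of 5 for fasted ones (-0.0233 to 0.101), and 0, 1, 3 and 2 mice correlated best with their own number. It did in 0 of 5 for the labelled knockout with either fasted group. A rule on every correlation cannot exclude that mice of some groups were paired. The ratio of Arrdc3 to Txnip in fed controls was 2.97 without division by length, against 1.48.

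The number of pairs co-varying by r was 0 with library set means removed, in controls 1 to 5, in S662D libraries and in fed libraries, against 1. It was 2 in fasted libraries (Txnip with Arrdc2, and Arrdc1 with Arrdc3) and 1 in controls 6 to 10, there Txnip with Arrdc3 (0.888) and not Txnip with Arrdc2 (adjusted p 0.427).

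Small differences that were not called changed sign. With controls 1 to 5 these were Arrdc1 on fasting (-0.0107), the Txnip difference of responses (-0.0136) and Arrdc3 in labelled knockout against controls (-0.0141, and -0.0118 with the block). With controls 6 to 10, S662D against fasted controls gave Arrdc2 0.266, Arrdc3 0.0817 and Txnip 0.0766. With the digit libraries it gave 0.122, 0.023 and 0.169, Arrdc4 in labelled knockout against S662D gave 0.00545, and Arrdc4 in fed mice -0.0555. Without the digit the differences of responses were -0.194 for Arrdc2 and -0.413 for Txnip, and fed S662D mice gave Arrdc1 0.0266 and Txnip 0.0699. With the digit as a term Arrdc4 gave 0.0194 fasted and Arrdc1 0.0439 fed. S662D against fasted controls gave Arrdc3 0.00435 without a low-count filter, and Arrdc3 0.00348 and Txnip 0.0336 without the choroid plexus libraries. With 1 library left out, the Txnip difference of responses ran from -0.0686 to 0.138, and S662D against fasted controls ran from -0.126 to 0.133 for Arrdc2, -0.0723 to 0.0284 for Arrdc3 and -0.127 to 0.0801 for Txnip. Fed Arrdc4 ran from -0.0187 to 0.0687. The causes were not tested.

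Counts over all genes, which set the backgrounds, ran from 304 to 1315 for fasting in controls, 7 to 683 for fasting in S662D, 0 to 486 for the interaction, 1 to 99 and 26 to 2986 for the labelled knockout against control and S662D, and 20 to 3148 and 16 to 3106 for S662D fasted and fed. Of the called genes, 44.4% rather than 68.5% were higher for fasting in S662D without scaling beyond library size. That share of called genes was 25.3% rather than 60.1% for S662D against fasted controls. For labelled knockout against S662D it was 50.1% rather than 35.6%.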
